A study of Homo sapiens with 6 samples.

Results

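The genes described here encode the machinery that tethers, docks and fuses membrane vesicles: SNAREs, the proteins that bind syntaxins, synaptotagmins and the exocyst. They were chosen by gene symbol from the protein-coding rows of the deposited expression table, and 74 of its 58735 genes met the rule. RNA-seq was performed on NCI-N87 cells, an established human gastric cancer (GC) cell line, in 6 libraries. In 3 libraries the cells carried the control lentivirus (shNC in the labels, an empty vector according to the methods) and in 3 a lentivirus with an shRNA against SCAMP1 (shScamp1). Both groups were infected with polybrene and selected with puromycin, so that each is a stable population of 1 cell line and is not stated to be a clone. The comparison of shScamp1 with shNC asked which transcripts differ in GC cells after SCAMP1 knockdown.

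SCAMP1 is a secretory carrier membrane protein of recycling and post-Golgi vesicles. A vesicle that carries an R-SNARE (a VAMP) fuses with a target membrane that carries Q-SNAREs (syntaxins and SNAP proteins) when these form a bundle of helices, and the ATPase NSF with its SNAP adaptors then takes the bundle apart. The exocyst holds secretory vesicles at the plasma membrane before fusion, Sec1/Munc18 proteins such as STXBP2 and STXBP3 guide syntaxins into the bundle, and several synaptotagmins make fusion respond to calcium. In gastric epithelium this machinery serves the delivery of membrane proteins and the release of mucus, acid and granule contents.

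The knockdown was visible in every library. SCAMP1 was at 12.6, 12.1 and 11.5 FPKM (fragments normalised for the length of the gene and the depth of the library) in shNC and at 1.70, 1.37 and 1.99 FPKM in shScamp1, which is -2.78 ± 0.14 as a log2 fold change with its standard error (SE), at an adjusted p of 0.000248. Recovered reads ranged from 14311769 to 15988700 per library. All tests used limma on log2(FPKM + 0.1), with Benjamini-Hochberg adjustment over the 15556 genes whose mean over the 6 libraries reached 0.5 FPKM, and a gene was called at an adjusted p under 0.05. Calls and p-values are from this fit of all 6 libraries unless another fit is named. Fold changes are given as differences on that log2 scale, where the added 0.1 shrinks the change of weakly expressed genes. The sources call the samples biological replicates without stating separate infections, so the p-values measure the spread between these samples, which may be technical. An exact two-sided permutation test of a single gene over 3 against 3 libraries cannot go below p = 0.1. Of 8 markers of gastric epithelial lines, all 8 passed the filter and 5 were called higher (against 8.82% of all genes tested), with a sum of 5528 to 5813 FPKM in shNC and 9235 to 10150 FPKM in shScamp1. The keratins KRT8, KRT18 and KRT19 were at means of 1534, 875 and 1688 FPKM in shNC and 3002, 2000 and 2844 FPKM in shScamp1. EPCAM (log2 fold change -0.048, adjusted p = 0.670), ERBB2 and MUC1 were not called. The 6 fibroblast markers summed to at most 0.773 FPKM, with 3 of 6 at 0 in all libraries, and the 5 neuronal or neuroendocrine markers (SNAP25 among them) to at most 0.256 FPKM. The 5 leukocyte markers summed to 1.44 to 1.73 FPKM in shNC and 2.25 to 4.70 FPKM in shScamp1, nearly all of it CD79A and CD14, while PTPRC, the pan-leukocyte marker, stayed at or under 0.0282 FPKM. The 4 endothelial markers summed to 0.139 to 0.235 FPKM in shNC and 0.381 to 0.612 FPKM in shScamp1, nearly all of it VWF. In bulk samples, fewer cells of a kind and less RNA per cell cannot be told apart.

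Of the 74 members, 53 passed the filter and were tested, and 21 lay under it. Just inside the filter were SYT12 at a mean of 0.558 FPKM, SYT13 at 0.661 FPKM and STXBP4 at 0.922 FPKM. Just outside were STX11 at 0.4997 FPKM, STXBP6 at 0.295 FPKM and EXOC3L1 at 0.269 FPKM. SYT12 passed through its level in shNC, since its mean in shScamp1 was 0.236 FPKM. Of the members of each role, the filter left 8 of 8 ER-Golgi SNAREs, 10 of 10 endosomal and trans-Golgi Q-SNAREs, 7 of 7 VAMPs, 3 of 3 disassembly factors, 5 of 6 syntaxin-binding proteins, 7 of 10 plasma membrane Q-SNAREs and 9 of 13 exocyst genes, but 4 of 17 synaptotagmins. The isoforms that serve fast release in neurons were nearly absent. SNAP25, the neuronal partner of STX1A, had 0 to 2 reads per library, and SYT1, the calcium sensor of synaptic vesicles, had 1 to 11. EXOC1L, SYT3, SYT4, SYT6 and SYT10 had 0 reads in all 6 libraries. A count of 0 allows up to 3 reads, which corresponds to 0.0353 to 0.254 FPKM for these genes and libraries and covers counting error only.

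**Figure D1:**
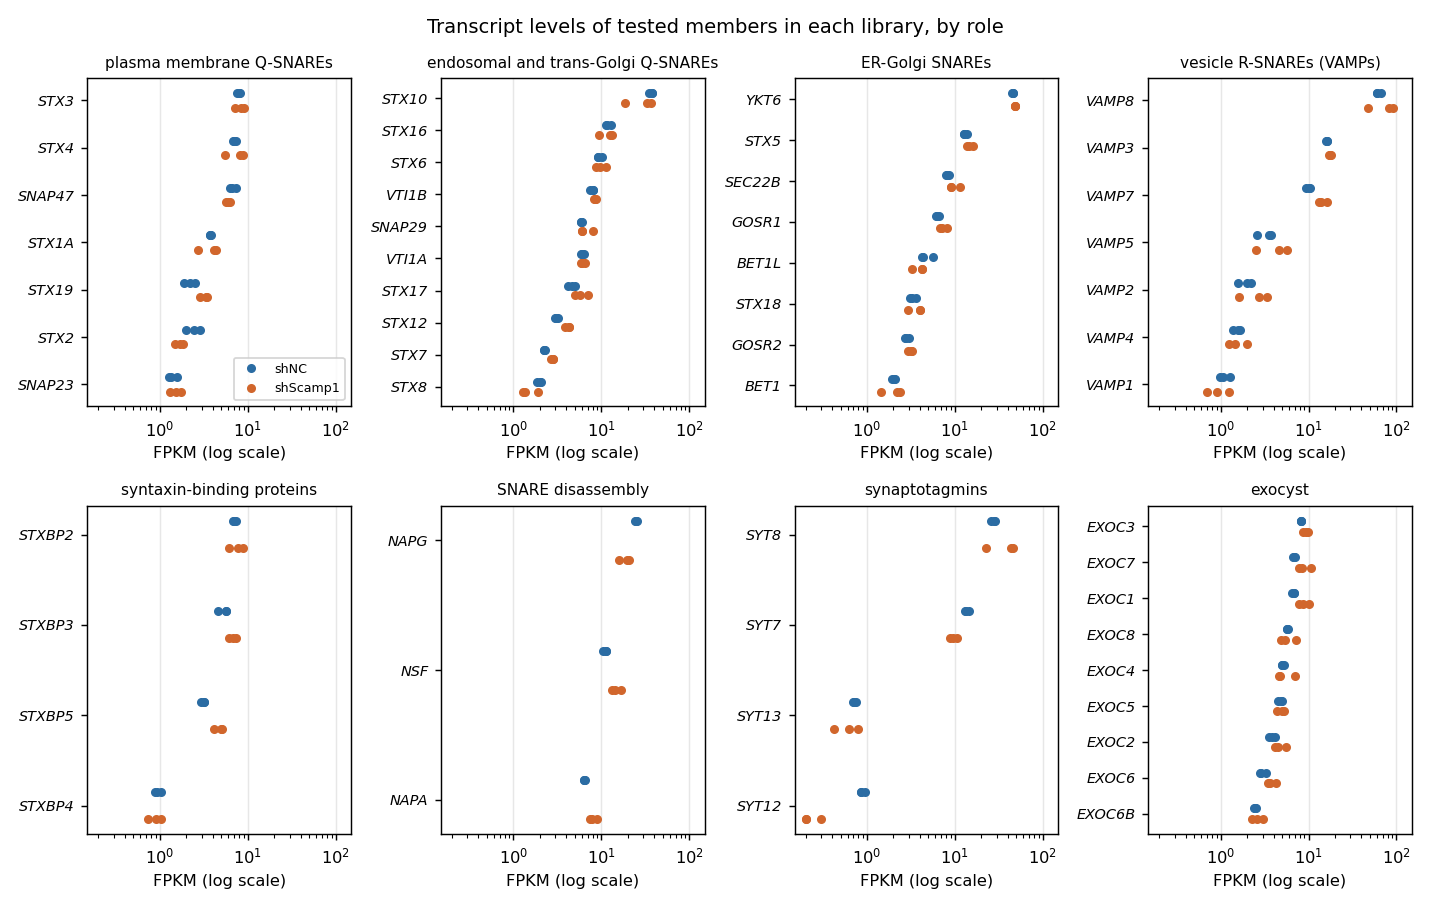
Transcript levels of 52 of the 53 tested members in FPKM on a log axis, grouped by role, with 1 point for each of the 3 shNC (blue) and 3 shScamp1 (orange) libraries. VAMP8, YKT6, STX10 and SYT8 stand above the other members of their panels, and 1 shScamp1 library of VAMP8, SYT8 and STX10 lies apart from the other shScamp1 libraries.

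Within each role the transcripts were unevenly divided. VAMP8, an R-SNARE of endosomes and secretory granules in epithelia, made up 64.6% ± 1.34 (SD, n = 3) of the summed FPKM of the VAMPs in shNC and 63.0% ± 7.32 in shScamp1. SYT8 made up 63.5% ± 0.82 of the summed FPKM of the synaptotagmins in shNC and 75.4% ± 9.16 in shScamp1. YKT6, an R-SNARE of the ER-Golgi route, made up 53.1% ± 0.81 and 51.9% ± 0.90 of the summed FPKM of its role. The other leaders by mean FPKM were STX10, of the trans-Golgi network, among the endosomal and trans-Golgi Q-SNAREs, STXBP2 (Munc18-2) among the syntaxin-binding proteins, STX3, the apical syntaxin of epithelial cells, at the plasma membrane, NAPG among the disassembly factors and EXOC3 in the exocyst. Among these 8 leaders, NAPG alone was called with all libraries.

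Of the 53 tested members, 5 were called higher in shScamp1 (9.43%, against 8.82% of all genes tested) and 3 were called lower (5.66%, against 5.17%). The members higher in shScamp1 were STXBP5, VAMP7, STX19, STX12 and NSF, and those lower were SYT12, SYT7 and NAPG. Only SYT12 also passed a log2 fold change of 1 in size (1.89% of members, against 3.16% of all genes tested). These shares lay near those of all genes. The median log2 fold change of the tested members was 0.11, with 38 above 0 and 15 below, beside -0.022 over all genes tested. When the libraries were scaled by total reads instead, 29 members were above 0 and 24 below. The median was then 0.039 for the tested members and -0.095 over all genes tested.

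These 8 calls depended on which library was left out. Leaving out any 1 of the 3 shNC libraries left 0 members called by limma, with 12 to 14 at an unadjusted p under 0.05, against 17 with all libraries. Calls over the 15556 genes tested also fell in these fits, to 644 to 671 higher and 164 to 187 lower, against 1372 and 805 with all libraries. Leaving out shScamp1 replicate 3 left 1 call, of SYT12, beside 716 higher and 314 lower over all genes tested. Leaving out shScamp1 replicate 1 left 7, of which EXOC1 and STX8 were not among the 8, beside 1141 higher and 673 lower over all genes tested. Without shScamp1 replicate 2, 15 members were then called higher (28.3%, against 14.7% of all genes tested) and 3 lower (5.66%, against 13.2%). All 8 called members kept their direction in each of the 6 fits with a library left out. Their groups do not overlap, so this could not have come out otherwise. On GRCh38 the 8 genes lie on 7 chromosomes, with STXBP5 at 6:147204425-147390476, VAMP7 at X:155881293-155943769, STX19 at 3:94014369-94028610, STX12 at 1:27773183-27824452, NSF at 17:46590669-46757464, NAPG at 18:10525905-10552761, SYT12 at 11:67006778-67050863 and SYT7 at 11:61515313-61581148, where STX19 and SYT7 are on the reverse strand and the others on the forward strand. Each value covers a whole gene, so exons and isoforms were not compared.

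**Figure D2:**
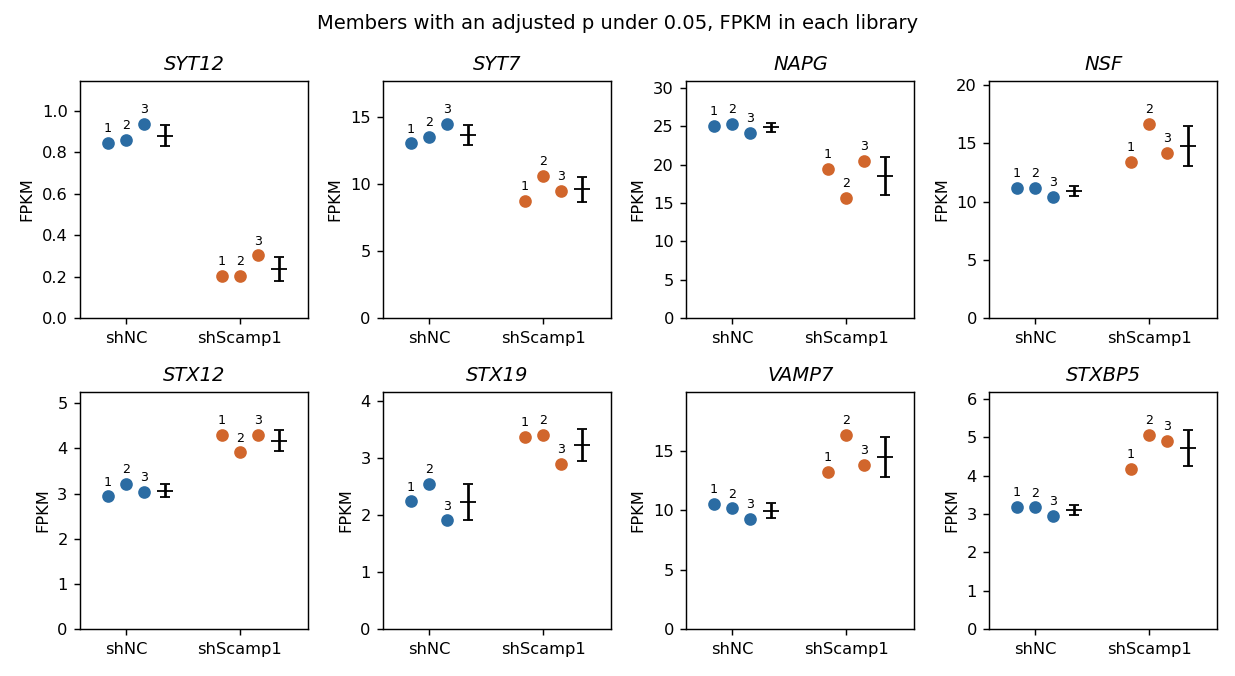
FPKM of the 8 called members in each library (numbers give the replicate), with the mean and SD of each group as a bar beside the points; each axis starts at 0. In all 8 panels the shScamp1 points lie wholly above or wholly below the shNC points.

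The vesicle R-SNARE with a call was VAMP7, which acts in the fusion of late endosomes and lysosomes and in their secretion. VAMP7 was at 10.5, 10.1 and 9.25 FPKM in shNC and at 13.2, 16.4 and 13.8 FPKM in shScamp1. Every shScamp1 library lay above every shNC library, and replicate 2 was the highest. The log2 fold change was 0.53 ± 0.10 (SE, adjusted p = 0.0207, and 0.00726 to 0.0900 with a library left out). VAMP7 lies in a region that the X and Y chromosomes share, so its reads may be split between copies.

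VAMP8 and VAMP5, which lie 2377 bases apart on chromosome 2, showed another pattern. VAMP8 was at 60.2, 66.1 and 59.8 FPKM in shNC and at 92.3, 47.4 and 81.5 FPKM in shScamp1. Replicates 1 and 3 of shScamp1 thus lay above all shNC libraries, and replicate 2 below them. The log2 fold change was 0.19 ± 0.24 (SE, adjusted p = 0.628). Without shScamp1 replicate 2 it was 0.48 (adjusted p = 0.00697, within a range of 0.00697 to 0.992 over the alternatives). VAMP5, described in muscle and in other tissues, was at 2.62, 3.59 and 3.71 FPKM in shNC and at 5.68, 2.50 and 4.59 FPKM in shScamp1, with the same library below all others. Without that library VAMP2 (synaptobrevin) and VAMP3 (cellubrevin, of recycling endosomes) were also called higher, so that 4 of 7 VAMPs were called higher, against 1 of 7 with all libraries, while the share of all genes called higher went from 8.82% to 14.7%. VAMP3 was at 15.8, 16.1 and 16.3 FPKM in shNC and at 17.6, 16.9 and 18.1 FPKM in shScamp1, a separation of the groups with little spread (adjusted p = 0.216 with all libraries). VAMP2 was at 2.01, 1.56 and 2.22 FPKM in shNC and at 3.41, 1.63 and 2.76 FPKM in shScamp1, with replicate 2 inside the range of shNC. VAMP4, of the trans-Golgi network, was at 1.55 ± 0.14 FPKM and 1.57 ± 0.39 FPKM (SD, n = 3), and VAMP1, a close relative of VAMP2, at 1.11 ± 0.16 FPKM and 0.951 ± 0.28 FPKM, which overlapped in both cases.

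Of the Q-SNAREs at the plasma membrane, STX19 was called. It is an epithelial syntaxin without a membrane anchor of the usual kind, and its transcript was short and sparsely covered, with 34 to 57 reads per library. STX19 was at 2.23, 2.54 and 1.90 FPKM in shNC and at 3.37, 3.41 and 2.89 FPKM in shScamp1, with no overlap of the groups. The log2 fold change was 0.52 ± 0.13 (SE, adjusted p = 0.0487, and 0.0593 to 0.146 with a library left out). Strand-specific counting is not stated, which leaves reads from overlapping genes uncertain at this locus. STX2 had the lowest log2 fold change of this role, with 2.85, 1.98 and 2.47 FPKM in shNC and 1.86, 1.47 and 1.69 FPKM in shScamp1. The groups of STX2 did not overlap, but the difference was not called (log2 fold change -0.51 ± 0.16, adjusted p = 0.0886). SNAP23, the widespread relative of SNAP25, was at a mean of 1.39 ± 0.15 FPKM in shNC and 1.53 ± 0.22 FPKM in shScamp1 (SD, n = 3), which did not differ beyond the spread of the libraries (adjusted p = 0.625). STX3 was at 7.92 ± 0.32 FPKM and 8.28 ± 0.97 FPKM (adjusted p = 0.733). STX4, the basolateral and widely used syntaxin, was at 6.84, 6.96 and 7.29 FPKM in shNC and at 8.83, 5.59 and 8.08 FPKM in shScamp1. Its replicate 2 of shScamp1 lay below shNC while replicates 1 and 3 lay above (adjusted p = 0.822, and 0.0282 without replicate 2). STX1A, best known from nerve terminals but present here, was at 3.75 ± 0.04 FPKM and 3.73 ± 0.88 FPKM, and had the same library lowest. SNAP47, an atypical SNAP protein, was lower in each shScamp1 library than in any shNC library, at 5.96 ± 0.29 FPKM against 6.73 ± 0.48 FPKM, without a call (adjusted p = 0.209).

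STX12 (syntaxin 13), a Q-SNARE of recycling endosomes, was the called member of the endosomal and trans-Golgi role. It was at 2.94, 3.21 and 3.03 FPKM in shNC and at 4.31, 3.91 and 4.30 FPKM in shScamp1. Its groups were well separated, and the log2 fold change was 0.44 ± 0.08 (SE, adjusted p = 0.0188, and 0.00649 to 0.0917 with a library left out). STX7, of late endosomes, was at 2.22, 2.24 and 2.31 FPKM in shNC and at 2.69, 2.80 and 2.84 FPKM in shScamp1, with little spread in either group. STX7 was not called (log2 fold change 0.29 ± 0.08, adjusted p = 0.0617). Over the alternatives its adjusted p ran from 0.0283 (by voom) to 0.588 and its log2 fold change from 0.11 to 0.31. Its frequent partner STX8 had a log2 fold change of the opposite sign, -0.39 ± 0.17 (adjusted p = 0.169). STX10, the most abundant member of the role, was at 34.9, 37.8 and 37.9 FPKM in shNC and at 36.8, 18.8 and 33.1 FPKM in shScamp1. Only shScamp1 replicate 2 of STX10 stood apart, and the difference was not called (adjusted p = 0.350). STX16, another trans-Golgi syntaxin, was likewise lowest in that library, at 9.46 FPKM against 13.1 and 12.4 FPKM in the other shScamp1 libraries and 11.4 to 13.0 FPKM in shNC. The reverse held for SNAP29, a SNAP protein of endosomes and autophagosomes, at 8.08 FPKM in that library and 5.999 and 6.07 FPKM in the other shScamp1 libraries, and for STX17, the syntaxin of autophagosomes, at 7.09 FPKM against 5.06 and 5.75 FPKM. STX6 was also highest there, at 11.4 FPKM against 8.63 and 9.59 FPKM. VTI1A and VTI1B, the paired Q-SNAREs of the trans-Golgi network and late endosomes, varied little, with means of 6.10 and 6.16 FPKM for VTI1A and of 7.85 and 8.54 FPKM for VTI1B in shNC and shScamp1 (adjusted p = 0.920 and 0.272).

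None of the 8 ER-Golgi SNAREs was called by limma with all libraries or, on recovered reads, by voom, and 1 had an unadjusted p under 0.05 in each. STX5 was called in 3 of the other fits. YKT6 was at 46.3, 44.7 and 46.3 FPKM in shNC and at 47.7, 48.8 and 48.2 FPKM in shScamp1. The groups did not overlap, but the log2 fold change was 0.074 ± 0.056 (SE, adjusted p = 0.417), and it was -0.00087 after scaling by total reads. The log2 fold changes of the role lay between -0.27 (BET1L, a Golgi SNARE) and 0.27 (SEC22B, the R-SNARE between ER and Golgi). SEC22B was at 8.04, 7.95 and 8.498 FPKM in shNC and at 9.06, 11.5 and 9.08 FPKM in shScamp1, with replicate 2 the highest (adjusted p = 0.162). STX5, the syntaxin of the Golgi, was at 12.8, 12.7 and 13.8 FPKM in shNC and at 16.02, 13.8 and 14.6 FPKM in shScamp1 (adjusted p = 0.198). Its groups did not overlap, by a narrow margin, and the adjusted p was 0.0331 with the length trend removed, 0.0261 with length and GC content trends removed and 0.0491 without shScamp1 replicate 2. The Golgi SNAREs GOSR1 and GOSR2 were at 6.35 and 2.84 FPKM in shNC and at 7.34 and 3.14 FPKM in shScamp1 (adjusted p = 0.187 and 0.319).

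The 3 disassembly factors differed from each other in direction. NSF, the ATPase, was at 11.2, 11.2 and 10.4 FPKM in shNC and at 13.4, 16.7 and 14.1 FPKM in shScamp1, with a log2 fold change of 0.42 ± 0.10 (SE, adjusted p = 0.0362, and 0.00898 to 0.138 with a library left out). NAPG, which encodes gamma-SNAP, was at 25.1, 25.3 and 24.2 FPKM in shNC and at 19.4, 15.7 and 20.5 FPKM in shScamp1, with a log2 fold change of -0.43 ± 0.11 (adjusted p = 0.0481, and 0.00498 to 0.162 with a library left out). NAPA, which encodes alpha-SNAP, the main adaptor of NSF, was at 6.45, 6.38 and 6.30 FPKM in shNC and at 8.96, 7.47 and 7.75 FPKM in shScamp1. All shScamp1 libraries of NAPA and NSF lay above shNC and all of NAPG below, but NAPA was not called (log2 fold change 0.33 ± 0.09, adjusted p = 0.0538, within a range of 0.0150 to 0.172 over the alternatives). NAPG made up 59.0% ± 0.22 (SD, n = 3) of the summed FPKM of the role in shNC and 44.7% ± 4.71 in shScamp1, and the sum itself was 42.1 ± 1.09 FPKM and 41.3 ± 1.33 FPKM. NSF shares sequence with the pseudogene NSFP1, at 0.745 and 1.03 FPKM, and overlaps RPS7P11 on the opposite strand, at 29.03 and 22.8 FPKM, so its reads are uncertain to that extent.

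Among the proteins that bind syntaxins, STXBP5 (tomosyn, which occupies Q-SNAREs and holds back vesicle fusion) was called. It was at 3.19, 3.17 and 2.96 FPKM in shNC and at 4.18, 5.08 and 4.91 FPKM in shScamp1. The groups did not overlap, and the log2 fold change of 0.58 ± 0.10 (SE, adjusted p = 0.0132, and 0.0111 to 0.0678 with a library left out) was the largest positive one among the 53 members. Its antisense gene STXBP5-AS1 was at 0.125 FPKM in shNC and 0.488 FPKM in shScamp1. The Sec1/Munc18 proteins STXBP2 and STXBP3 were not called. STXBP2 was at 6.85, 7.27 and 7.07 FPKM in shNC and at 8.76, 6.09 and 7.84 FPKM in shScamp1 (adjusted p = 0.722). STXBP3, the widespread form, had a log2 fold change of 0.33 ± 0.12 (adjusted p = 0.111, and 0.0417 without shScamp1 replicate 2). STXBP4, a syntaxin 4 binder, was at 0.953 ± 0.078 FPKM in shNC and 0.891 ± 0.15 FPKM in shScamp1 (adjusted p = 0.763). STXBP6 (amisyn), under the filter, had 41, 44 and 50 reads in shNC and 12, 35 and 36 reads in shScamp1.

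The largest difference of any tested member was that of a synaptotagmin. SYT12, which is thought not to bind calcium, was at 0.844, 0.859 and 0.938 FPKM in shNC (145, 155 and 157 reads) and at 0.202, 0.202 and 0.303 FPKM in shScamp1 (32, 30 and 48 reads). The groups were far apart, with a mean in shScamp1 of 0.268 times that in shNC. The log2 fold change was -1.56 ± 0.30 (SE, adjusted p = 0.0213, and 0.0161 to 0.102 with a library left out), the only one past 1 in size. With log2(FPKM + 1) it was -0.61 (adjusted p = 0.0129, within a range of 0.000341 to 0.102 over the alternatives).

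SYT7, a calcium sensor of lysosome and granule exocytosis, was at 13.1, 13.5 and 14.5 FPKM in shNC and at 8.75, 10.6 and 9.48 FPKM in shScamp1. All shScamp1 libraries lay below shNC, and the log2 fold change was -0.51 ± 0.09 (SE, adjusted p = 0.0166, and 0.00282 to 0.0802 with a library left out). The overlapping same-strand transcript AP003108.5 was lower too, at 3.34 FPKM in shNC and 2.01 FPKM in shScamp1. SYT8 was at 25.9, 28.1 and 28.3 FPKM in shNC and at 45.4, 22.5 and 43.3 FPKM in shScamp1. As with VAMP8, replicate 2 of shScamp1 lay below shNC and the other shScamp1 libraries above it (log2 fold change 0.37 ± 0.27, adjusted p = 0.396). Without that library the log2 fold change of SYT8 was 0.69 (adjusted p = 0.000821, within a range of 0.000821 to 0.666 over the alternatives).

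Below the filter, SYT16 had 6, 8 and 8 reads in shNC and 33, 33 and 25 reads in shScamp1, which correspond to 0.025, 0.032 and 0.034 FPKM and to 0.148, 0.158 and 0.112 FPKM. The groups did not overlap at this low depth, and without a filter on low values the difference was not called (adjusted p = 0.0955). SYT13, a relative that lacks calcium binding, was at a mean of 0.715 ± 0.027 FPKM in shNC and 0.606 ± 0.18 FPKM in shScamp1 (adjusted p = 0.590). The other synaptotagmins under the filter had at most 22 reads in any library.

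The 9 tested exocyst genes had log2 fold changes between 0.00081 (EXOC8) and 0.39 (EXOC1), all above 0, but 3 of them (EXOC4, EXOC5 and EXOC8) were below 0 with the libraries scaled by total reads, 2 (EXOC5 and EXOC8) with the length trend removed and 4 (the first 3 and EXOC6B) without shScamp1 replicate 2. EXOC5 and EXOC8 were also below 0 with length and GC content trends removed and without shNC replicate 3. EXOC8 alone was below 0 by voom and without shNC replicate 1. None of the 9 was called by limma on log2(FPKM + 0.1) with all 6 libraries, with 3 at an unadjusted p under 0.05, and voom called 1 of the 9, EXOC1. In other limma fits EXOC1 was called over protein-coding genes only and without shScamp1 replicate 1, and EXOC7 with the length trend removed. Both were called with length and GC content trends removed and without shScamp1 replicate 2. EXOC1 (SEC3), which binds lipids of the plasma membrane, was at 6.84, 6.52 and 6.79 FPKM in shNC and at 7.77, 10.2 and 8.67 FPKM in shScamp1 (log2 fold change 0.39 ± 0.11, adjusted p = 0.0622). EXOC7 (EXO70), the other lipid-binding subunit, was at 6.88, 6.64 and 6.94 FPKM in shNC and at 7.86, 10.7 and 8.44 FPKM in shScamp1 (log2 fold change 0.38 ± 0.12, adjusted p = 0.0876). Both were without overlap between the groups, and EXOC3, at 8.29, 8.28 and 8.25 FPKM against 9.44, 9.79 and 8.55 FPKM, was as well (adjusted p = 0.201). In shScamp1 replicate 2 every one of the 9 genes had its highest value of the 6 libraries. That library was the highest in 37.7% of the tested members and in 29.5% of all genes tested. The summed FPKM of the exocyst genes was 47.4, 47.3 and 46.3 in shNC and 49.3, 63.2 and 51.5 in shScamp1. With the deposited scaling the summed level in shScamp1 thus lay above shNC in each library, by a small amount in replicates 1 and 3. The sum was not compared with the libraries scaled by total reads. EXOC4 (SEC8) was at 5.30, 4.97 and 4.99 FPKM in shNC and at 4.61, 6.96 and 4.78 FPKM in shScamp1, where replicate 2 lay above shNC and replicates 1 and 3 below. EXOC8 (EXO84) had the same order, at 5.73, 5.85 and 5.64 FPKM in shNC and at 4.83, 7.29 and 5.36 FPKM in shScamp1. EXOC6 (SEC15) was at 2.99 ± 0.24 FPKM and 3.79 ± 0.42 FPKM and its paralog EXOC6B at 2.46 ± 0.07 FPKM and 2.63 ± 0.39 FPKM (SD, n = 3, with an adjusted p = 0.101 and 0.684 between the groups). Of the EXOC3-like genes, EXOC3L1 had 11 to 18 reads per library, and EXOC3L2 and EXOC3L4 had at most 1.

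**Figure D3:**
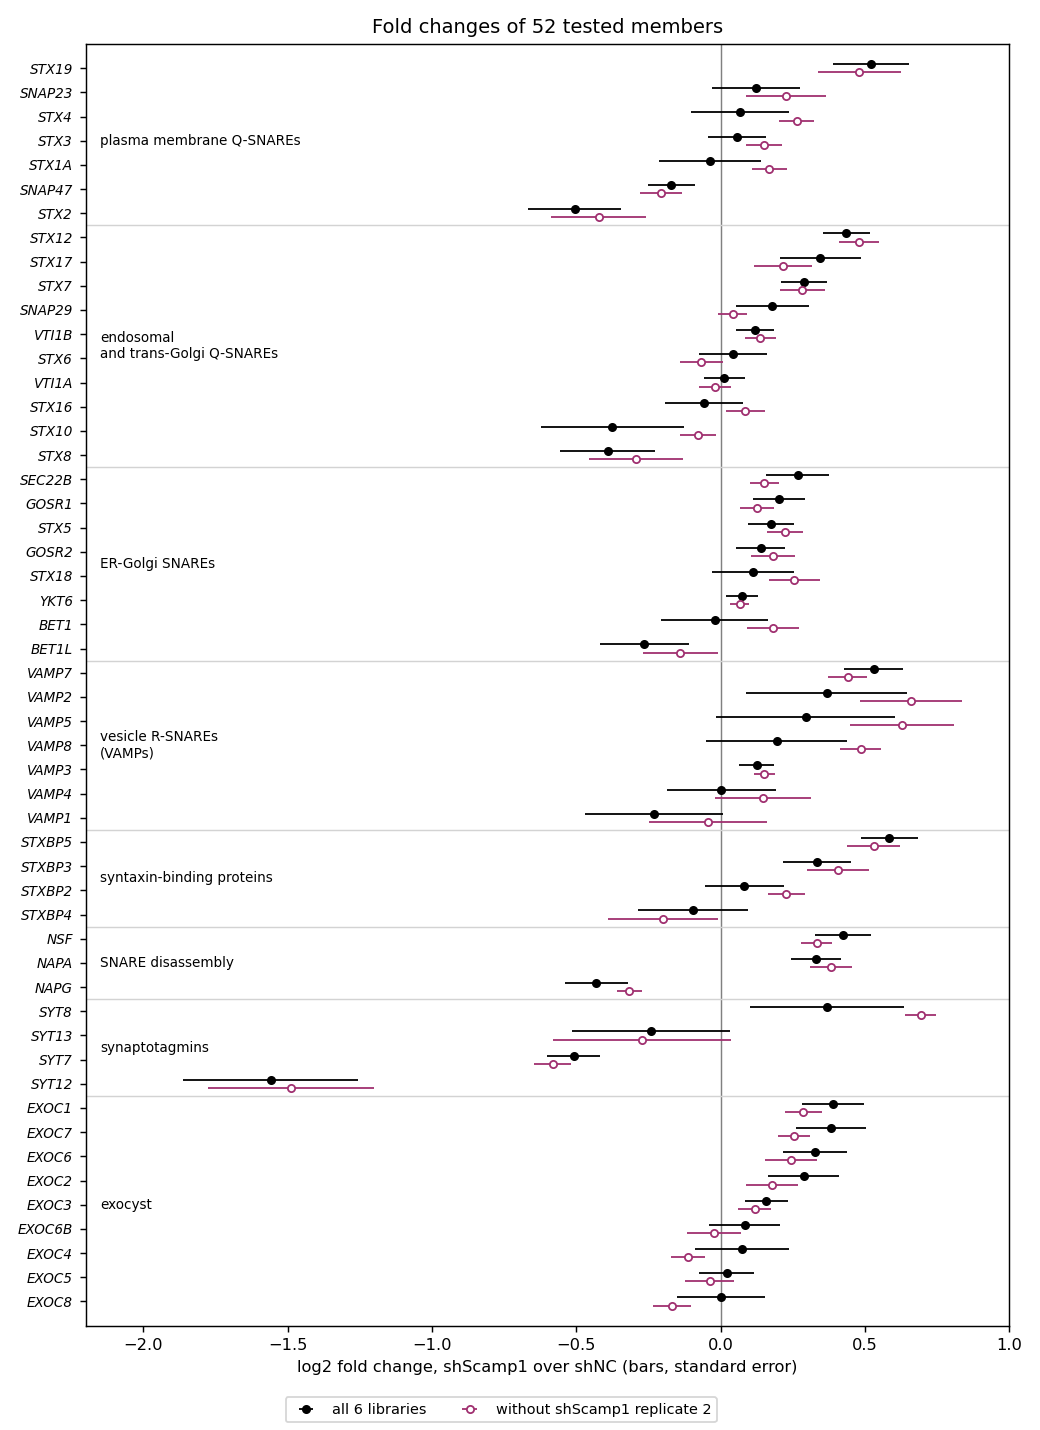
Log2 fold changes (shScamp1 over shNC, on log2(FPKM + 0.1)) of 52 of the 53 tested members, sorted within each role, with standard errors as bars; filled points use all 6 libraries and open points leave out shScamp1 replicate 2. SYT12 lies lowest at -1.56, and the open points of SYT8, VAMP2, VAMP5 and VAMP8 lie to the right of the filled ones while those of the exocyst genes lie to the left.

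Whether the groups overlap was counted for all members as well. In 21 of 53 members every shScamp1 library lay above every shNC library (39.6%, against 20.4% of all genes tested), and in 5 every one lay below (9.43%, against 21.0%). The 5 lower members were STX2, SNAP47, SYT7, SYT12 and NAPG. The split by direction was thus uneven, but these members were chosen with results of these data known, and no test was made of it. The overlap was counted with the deposited scaling only. With the libraries scaled by total reads, 29 of the 53 log2 fold changes were above 0 and 24 below, against 38 and 15.

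Replicate 2 of shScamp1 was the highest or the lowest of the 6 libraries in 71.7% of the tested members (20 highest, 18 lowest) and in 61.9% of all genes tested. The mitochondrial share of its reads was 9.21%, against 6.09% to 6.78% in the other libraries. Over the 53 members its difference from the mean of the other shScamp1 libraries, on log2(FPKM + 0.1), ran from -1.004 (VAMP5) to 0.56 (EXOC4). It was below 0 in 6 of 7 VAMPs and above 0 in 9 of 9 exocyst genes. Across these genes, which share 1 library and are not independent replicates, the difference correlated with the log of gene length (Pearson's r = 0.51, Spearman's rho = 0.44) and inversely with GC content (r = -0.45, rho = -0.38). Over all genes tested the values were r = -0.0013 and rho = 0.22 for length and r = -0.14 and rho = -0.19 for GC content. With trends of gene length and GC content removed from each library, an alternative added after the data were seen, 10 members were called higher (against 11.3% of all genes tested) and 3 lower (against 7.92%). The part of gene length, GC content or RNA quality in these results was not tested further.

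**Figure D4:**
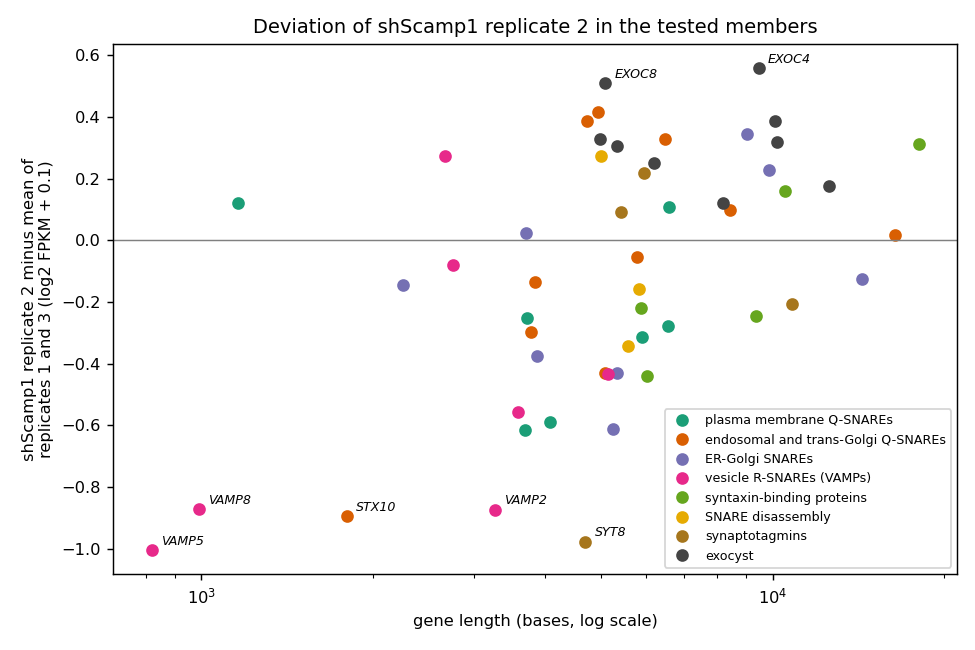
Difference of shScamp1 replicate 2 from the mean of shScamp1 replicates 1 and 3 (log2 FPKM + 0.1) against gene length in bases on a log axis, with 1 point for each of the 53 tested members, coloured by role. Of the short genes, VAMP5 and VAMP8 lie near -1.004 and -0.87 but STX19 and VAMP7 at 0.12 and 0.27, and all 9 exocyst genes lie above 0.

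Of the regulatory sequence, 61 of 74 members had an entry in a table of RefSeq promoters (GRCh38.p14, 250 bases before to 50 after the RefSeq start of the gene). For STXBP5, VAMP7 and STX12, the 3 members called higher with the lowest adjusted p (picked after their values were seen), the matched element nearest before the RefSeq start is given in capitals with 12 bases on either side (5′ to 3′, forward strand, at 6:147204313-147204342, X:155881268-155881296 and 1:27773193-27773222). It is a GC box (printed as CCGCCC, which reads GGGCGG on the other strand) for STXBP5 and STX12 and a CCAAT box (here as ATTGG) for VAMP7. By the GENCODE coordinates STX12 starts at 27773183, ahead of its window. The element of STX12 thus lies before the RefSeq start but inside the gene by those coordinates.
STXBP5: gaagaggggtcgCCGCCCaggtttcttgcg
VAMP7: tcgcctgctgccATTGGaggagcgctccc
STX12: ttagctccttccCCGCCCttgctcttccca
On either strand, a GC box was present in 72.7% of 44 promoters of tested members and in 70.6% of 9527 promoters of all genes tested, against 44.6% of all 27305 promoters. A CCAAT box was present in 31.8% of the former and 36.7% of the latter, a CACGTG E-box in 15.9% and 10.3%, and a TATAAA box in 0 of the 44 and 5.52% of the 9527. These letters describe the windows alone and were not tied to a difference in expression.

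Genes that work with the members but fall outside the rule were examined in 6 lists of 72 genes, of which 54 were tested. In these lists 9 genes were called higher (16.7%) and 4 lower (7.41%), beside the 8.82% and 5.17% of all genes tested. The calls fell in 3 lists, with 2 higher and 2 lower of 7 priming and clamping factors, 4 higher and 1 lower of 11 other C2-domain proteins, and 3 higher and 1 lower of 9 exocyst GTPases and relatives. With all libraries, none was called by limma among 15 other multisubunit tethers (COG, GARP and their relatives), 6 other SNAREs and disassembly factors and 6 other Sec1/Munc18 proteins and syntaxin binders, where 1, 1 and 4 had an unadjusted p under 0.05 and voom called 0, 1 and 1. Without shScamp1 replicate 2, limma called 0 of the 15 tethers, 1 lower of the 6 other SNAREs and disassembly factors (NAPB), and 1 higher and 2 lower of the last 6 (VPS45, SCFD2 and TXLNG).

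CADPS, CPLX1, BAIAP3, FER1L6 and MYOF had lower adjusted p-values than every tested member. CADPS, which primes dense-core vesicles, was at 4.31, 4.38 and 4.58 FPKM in shNC and at 2.39, 2.47 and 2.37 FPKM in shScamp1 (log2 fold change -0.85 ± 0.07, adjusted p = 0.00128). CPLX1 (complexin), which clamps the SNARE bundle, was at 2.37 ± 0.13 FPKM and 1.31 ± 0.04 FPKM (SD, n = 3), with a log2 fold change of -0.81 (adjusted p = 0.00476). BAIAP3, a Munc13 relative of dense-core vesicle and endosome traffic, was at 2.65, 2.87 and 3.08 FPKM and at 5.47, 6.20 and 5.60 FPKM (log2 fold change 0.98 ± 0.09, adjusted p = 0.00172). FER1L6, a ferlin, was at 0.344, 0.407 and 0.396 FPKM and at 1.26, 1.92 and 1.57 FPKM (log2 fold change 1.79 ± 0.22, adjusted p = 0.00476). FER1L6 passed the filter through its level in shScamp1, since its mean in shNC was 0.382 FPKM, and without a filter its adjusted p was 0.0106. MYOF, another ferlin, was at 40.7, 41.5 and 41.6 FPKM and at 61.4, 82.9 and 65.0 FPKM (log2 fold change 0.74 ± 0.12, adjusted p = 0.0115), and was called in 3 of the 6 fits with a library left out. The other 4 stayed called in each of these 6 fits, which none of the members did. DOC2A, a calcium sensor, had a log2 fold change of -1.07 (adjusted p = 0.0407) and RAB27B, a GTPase of secretory granules, of 0.81 (adjusted p = 0.0408). With a library left out they were called in 1 and 2 of the 6 fits. DOC2A passed the filter through its mean of 0.901 FPKM in shNC, against 0.376 FPKM in shScamp1, and was not called without a filter (adjusted p = 0.0617).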

How the data were processed

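RNA of 3 shNC and 3 shScamp1 samples was sequenced. The authors deposited FPKM per gene and library, and the submitters' processing notes name HISAT2 2.0.5, featureCounts 1.5.0-p3, DESeq2 1.20.0 and hg38, without roles. FPKM times gene length gave whole reads (within 0.05 of a read) for 100% of values, and the deposited FPKM already included size factors of 0.914 to 1.11. Differences of level were tested in R 4.3.3 with limma 3.58.1 (lmFit, eBayes with a mean-variance trend). The voom test of recovered reads was an alternative. Others covered the pseudocount, filter, scaling, trends, biotypes, replicate block and each library left out. The test was run on simulated data first. Gene coordinates are those of GENCODE 29. The members, roles and lists of related and marker genes were chosen with earlier results of these data known. Genes named by rule are SCAMP1, called members, the leader of each role by mean FPKM and up to 6 called related genes of largest fold change. All others were named after their values were seen. Symbols matching the rule with another biotype (3 genes) were left out. Reads from near-identical copies or from overlapping genes may be shared, and 33 of 53 tested members overlap another gene, 24 of them one on the opposite strand. Some values of members and of overlapping genes are not reported here.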

Additional observations from a re-analysis of the deposited data

How the results depend on the processing

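SCAMP1 was called in all 17 alternatives, with an adjusted p of at most 0.00633. The count of members called higher, 5, was 3 without a filter on low values (3.28% of all genes tested in that fit were called higher), 3 without the variance trend (7.77%), 8 over protein-coding genes only (13.6%), 10 with length and GC content trends removed (11.3%, added after the data were seen), and 0 to 15 with a library left out (4.14% to 14.7%). The count called lower, 3, was 0 to 3 with a library left out (1.05% to 13.2%). The count past a log2 fold change of 1, 1, was 0 with log2(FPKM + 1), 0 with the filter raised to 1 FPKM, which removed SYT12, and 0 to 1 with a library left out. With the replicate number as a replicate block, 0 members were called higher, 0 lower and 0 past the fold (15 at an unadjusted p under 0.05, adjusted p of the 8 from 0.0519 for SYT7 to 0.104 for NAPG). In that fit 704 of the 15556 genes tested were called higher and 254 lower. Deviations of same-numbered libraries correlated at -0.0351, 0.0325 and 0.0668, so the numbers were not taken to pair the samples. Among all calls, 63.0% were higher in shScamp1, but 47.3% were with scaling by total reads. There 4 members were higher (against 7.32% of all genes tested) and 3 lower (against 8.15%). Over the called members and the leader of each role alone, 200 values kept their side of the threshold, 52 lost the call and 2 gained it. Other members also gained calls under alternatives, EXOC1, EXOC7, NAPA, STX5 and STX7 among them. The sign changed in 4 of the 200, none of them called (STX3 at -0.017 with scaling by total reads and -0.017 without shScamp1 replicate 1, STXBP2 at -0.031 without that library, and YKT6 with scaling by total reads). The cause of these differences was not tested. With 3 libraries a group and few reads on genes such as STX19, SYT12 and SYT16, small differences could not be resolved.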
